A study of Mus musculus with 104 samples.

Results

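The striatum of 6-month-old BAC-CAG mice was compared with that of WT mice by RNA sequencing of whole tissue, gene by gene. The libraries were chosen by their labels alone: striatum, 6 months, and genotype BAC-CAG or WT. This gave 16 of the 104 libraries of the series, with 8 BAC-CAG (4 female, 4 male) and 8 WT (4 female, 4 male). All mice were on the FvB background and the WT mice were littermates. The BAC-CAG mice carry a bacterial artificial chromosome with human mutant HTT and a long uninterrupted CAG repeat, and both genotypes keep the mouse Htt gene. The labels used here do not give the transgene copy number, and each library is dissected tissue from a mouse perfused with saline, so neurons, glia and vessels are mixed in it.

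The striatum is the brain region most affected in Huntington's disease, which is caused by an expanded CAG repeat in HTT. Most of its neurons are spiny projection neurons. Those of the direct pathway express the dopamine receptor Drd1 with the peptides Tac1 and Pdyn, and those of the indirect pathway express Drd2, Adora2a and Penk. Loss of the RNAs that define these neurons, many of them in dopamine and cAMP signalling, is a known feature of the disease in humans and mouse models.

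Each library held between 27.5 M and 42.8 M reads counted to genes (M for mega), with a mean of 33.9 M ± 4.77 M in WT (SD, n = 8) and 33.4 M ± 3.18 M in BAC-CAG (SD, n = 8). The RNA carried the markers of the labelled tissue: Ppp1r1b, the DARPP-32 phosphoprotein of spiny projection neurons, was at 1990.3 ± 217 CPM in WT against 1790.5 ± 230.4 CPM in BAC-CAG (SD, n = 8 each; CPM are read counts scaled to 1 M reads per library with edgeR's library factors), and 39 of 40 listed genes of these neurons were tested. Sex-linked transcripts matched the labelled sex in 8 of 8 females and 8 of 8 males. WT replicates 5 and 6 and BAC-CAG replicate 5 lay farthest out on the first principal components, which carried 24.7% and 19.9% of the variance. The mouse names in the titles begin with a number that was 1 to 3 for 5 WT and 3 BAC-CAG mice and 14 to 19 for 3 WT and 5 BAC-CAG mice. The labels do not say what this number means, and it was unevenly spread over the genotypes. The mice of a group are separate animals by their names.

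At 6 months 2 genes differed between the genotypes: Msantd1 rose and Pkp2 fell. They were 2 of 17773 genes tested (0.0113%) in an edgeR quasi-likelihood test with sex as a covariate and Benjamini-Hochberg adjustment at 0.05. With no adjustment 805 genes had p under 0.05 (4.53%), 404 of them higher in BAC-CAG (2.27%) and 401 lower (2.26%). DESeq2, run on the same counts, called 24 of 19784 genes (0.121%), 11 higher and 13 lower.

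**Figure D1:**
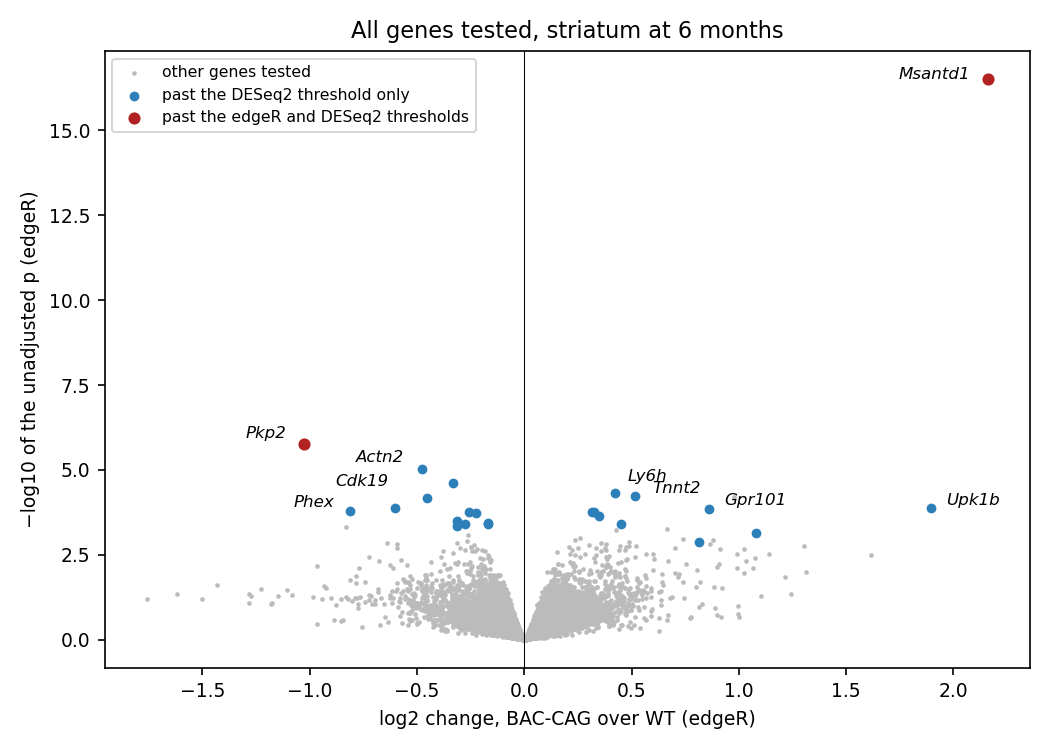
Each point is 1 of the 17773 genes, with its log2 difference (BAC-CAG over WT striatum at 6 months) on the horizontal axis and the -log10 of its unadjusted edgeR p on the vertical axis; red points passed in edgeR and DESeq2, blue points in DESeq2 only. Msantd1 at 2.16 and Pkp2 at -1.03 are the 2 red points, and the blue points lie close below Pkp2 on both sides of 0.

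Msantd1 encodes a protein with a Myb/SANT-like DNA-binding domain and lies directly downstream of Htt. The lowest, median and highest WT libraries held 2.37, 2.77 and 3.32 CPM. The BAC-CAG libraries held 11.3, 12.5 and 13.4 CPM. The groups were far apart, and no library lay between 3.32 and 11.3 CPM. WT libraries averaged 2.79 ± 0.294 CPM and BAC-CAG libraries 12.5 ± 0.608 CPM (SD, n = 8 each). The log2 difference was 2.16 (SE 0.07, edgeR adjusted p = 5.4e-13), with 2.17 in females and 2.14 in males. The exact permutation p, two-sided over the 16 libraries, was 0.00016, the smallest that this design allows.

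Htt itself showed no difference of this kind. The WT libraries held 185, 206 and 214 CPM (lowest, median, highest) and the BAC-CAG libraries 159, 214 and 230 CPM. The groups overlapped: 4 BAC-CAG libraries lay above the highest WT library, 3 lay within the WT range and 1, replicate 5, lay below it. The log2 difference was 0.04 (SE 0.06), so the reads counted to mouse Htt do not separate the genotypes as those at Msantd1 do. In GENCODE M21 (GRCm38), which pairs with the gene identifiers of the count table, Htt spans chr5:34761740-34912534 on the plus strand and Msantd1 chr5:34908012-34923839 on the same strand, an overlap of 4523 bp. In RefSeq's annotation of the same build Msantd1 begins at 34914593 and the genes do not overlap, with 2058 bases between them. The annotation used for counting is not given in the sources used here, the references named include no human genome, and reads from the mouse genes, the human transgene and its flanks cannot be told apart in these counts. Of the 12 tested genes listed for the Htt locus, Msantd1 among them, 7 were positive and 5 negative. Their median log2 difference was 0.06 and the lowest -0.14. Of this list, 2 genes are named for their small p-values and not for their distance. Mfsd10, a transporter of the major facilitator family, had a log2 difference of 0.16 and Tnip2, an adaptor of NF-kappa-B signalling, one of 0.14. Neither passed the adjusted threshold in edgeR.

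Pkp2 encodes plakophilin 2, an armadillo-repeat protein that links desmosomal cadherins to intermediate filaments and is best known from cardiac muscle. The gene lies at chr16:16213318-16272712 on the plus strand (GRCm38). The WT libraries held 4.15, 6.15 and 8.06 CPM (lowest, median, highest) and the BAC-CAG libraries 2.35, 2.80 and 3.95 CPM. The groups did not overlap, and the gap between them was small beside the WT range. The mean fell from 6.10 ± 1.40 CPM to 2.97 ± 0.554 CPM (SD, n = 8 each), a log2 difference of -1.03 (SE 0.15, edgeR adjusted p = 0.016). The difference was -0.97 in females and -1.08 in males. Of the 22 tested genes of desmosomes and adherens junctions, 15 were negative and 7 positive, with a median log2 difference of -0.04, and Pkp2 was the 1 member that passed the test. Over all genes tested the median was -0.0012 and 50.7% were negative.

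**Figure D2:**
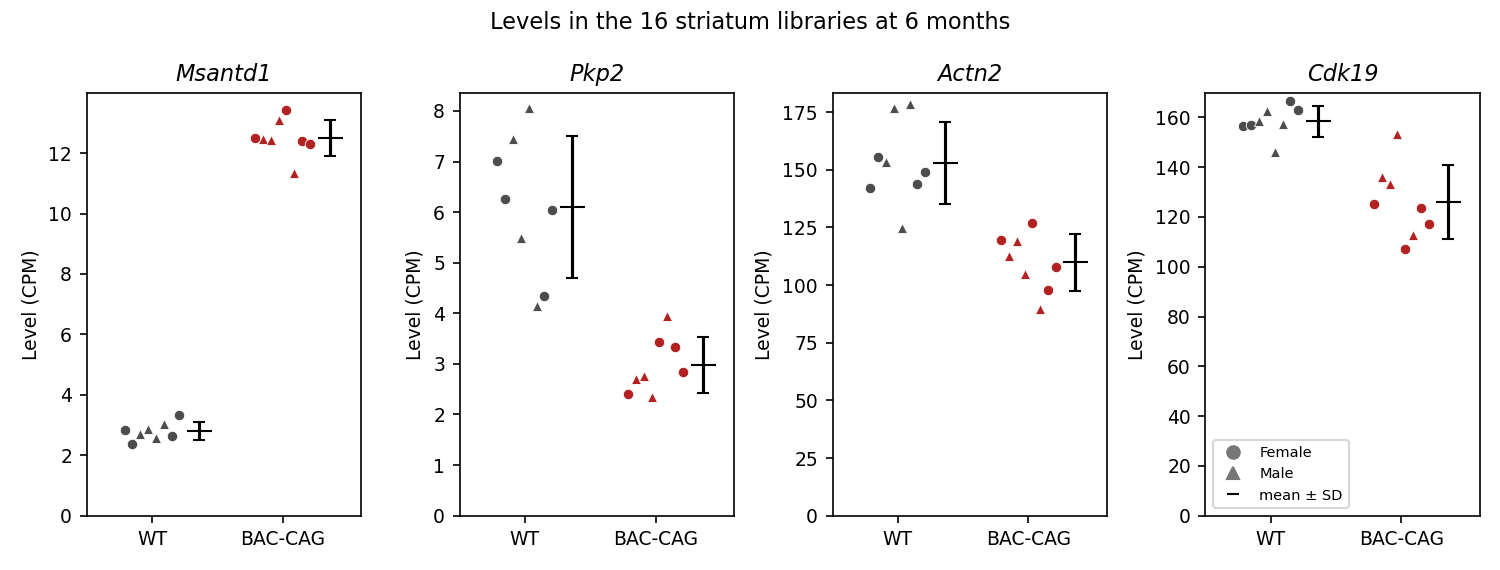
Levels of Msantd1, Pkp2, Actn2 and Cdk19 (CPM, axes from 0) in each of the 16 libraries, WT in grey and BAC-CAG in red, with circles for females, triangles for males and bars for the mean ± SD of 8 libraries. Msantd1 and Pkp2 do not overlap between the genotypes, while for Actn2 and Cdk19 the highest BAC-CAG library reaches the lowest WT library.

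The level of Pkp2 varied within WT together with a marker list of the tissue around the striatum. The list holds 10 genes of septum, pallidum and thalamus, among them Prkcd, Tcf7l2, Rora and Slc17a6, and its score is the mean of log2(CPM + 1). The score ran from 3.48 to 5.20 in WT and from 3.49 to 4.57 in BAC-CAG. Of the 10 genes 9 had a negative log2 difference, with a median of -0.43. Unadjusted p was under 0.05 for 2 lower ones (20%), against 2.26% of all genes tested. No member's group mean was at 0, the lowest being Lhx9 at 1.09 CPM in WT against 0.480 CPM in BAC-CAG. The summed level of the list was 609 to 1180 CPM in WT and 566 to 912 CPM in BAC-CAG. Within the 8 WT libraries Pkp2 was higher where the score was higher, with Pearson's r = 0.90 (exact permutation p = 0.0032, adjusted over 8 relations 0.025) and Spearman's rho = 0.93 (exact permutation p = 0.0022, adjusted 0.018). Without WT replicates 3 and 5, farthest from the median score, r was 0.82. Within the 8 BAC-CAG libraries r was 0.67 (exact permutation p = 0.072, adjusted 0.14) and rho 0.71 (exact permutation p = 0.058, adjusted 0.18). Without BAC-CAG replicates 5 and 7, r was 0.81. With the score as a covariate, chosen after seeing the data, the Pkp2 difference was -0.83 (SE 0.11, edgeR adjusted p = 0.0042). Of the other genes set against the score, Actn2 had r = -0.72 within WT (exact permutation p adjusted 0.12) and Cdk19 r = -0.72 (exact permutation p adjusted 0.12), the opposite sign to Pkp2. Without WT replicates 3 and 5 these were -0.59 and -0.39. Within BAC-CAG, Actn2 had r = -0.15 and Cdk19 r = -0.55. Msantd1 had r = -0.53 within WT and 0.09 within BAC-CAG, and the latter was -0.89 without BAC-CAG replicates 5 and 7. With 8 libraries per genotype these r values were unstable. The relations were not planned and used 1 of 34 list scores, and the adjustment over 8 relations does not cover that choice.

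**Figure D3:**
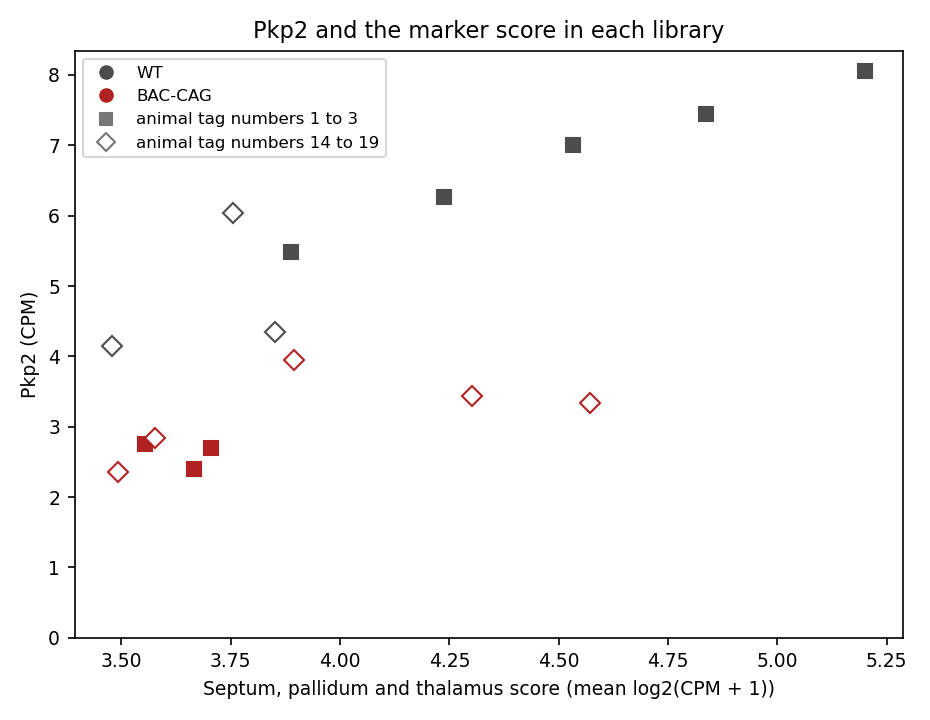
Pkp2 (CPM) against the septum, pallidum and thalamus marker score (mean log2(CPM + 1)) in the 16 libraries, WT in grey and BAC-CAG in red, with squares for animal numbers 1 to 3 and open diamonds for 14 to 19. WT libraries with higher scores have more Pkp2 (r = 0.90), and every BAC-CAG library lies below every WT library, whatever its score.

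The animal numbers moved with these values too. In the mice numbered 1 to 3, Pkp2 was 6.85 ± 1.01 CPM in WT (SD, n = 5) and 2.62 ± 0.192 CPM in BAC-CAG (SD, n = 3), a log2 difference of -1.39 (SE 0.15, edgeR adjusted p = 0.012). In the mice numbered 14 to 19 it was 4.85 ± 1.04 CPM in WT (SD, n = 3) and 3.18 ± 0.608 CPM in BAC-CAG (SD, n = 5), a difference of -0.59 (SE 0.19, edgeR adjusted p = 0.99998), so the call did not hold there. Pkp2 did not overlap over the 16 libraries, so it could not overlap within a range, and this adds no support. In the first range WT held 5.48 to 8.06 CPM and BAC-CAG 2.40 to 2.76 CPM. In the second these were 4.15 to 6.04 and 2.35 to 3.95 CPM. With the range as a covariate, added after seeing the data, the difference was -0.97 and its edgeR adjusted p 0.068. WT mice numbered 1 to 3 also had marker scores of 3.89 to 5.20, against 3.48 to 3.85 in WT mice numbered 14 to 19. The Pkp2 call was lost without WT replicate 1 or 3, or without BAC-CAG replicate 1, 2, 3 or 8, with an edgeR adjusted p of up to 0.063 and a difference of -1.10 to -0.96 over all 16 such fits. The part of the surrounding-tissue markers and of the animal numbers in the size of the Pkp2 difference was not tested beyond these values.

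A further 22 genes were short of the threshold in edgeR and past it in DESeq2. Next after Pkp2 in edgeR came Actn2. Its product, alpha-actinin 2, crosslinks actin in dendritic spines and binds the NMDA receptor, and the gene lies at chr13:12269426-12340760 on the minus strand. It was at 125, 151 and 179 CPM in WT (lowest, median, highest) and at 89.5, 110 and 127 CPM in BAC-CAG. Every BAC-CAG library was below the WT median, with an overlap between 125 and 127 CPM. The means were 153 ± 17.9 and 110 ± 12.4 CPM (SD, n = 8 each), a log2 difference of -0.48 (SE 0.08, edgeR adjusted p = 0.054, DESeq2 adjusted p = 5.7e-05). The edgeR adjusted p was under the threshold without WT replicate 5 (0.015) or BAC-CAG replicate 5 (0.018), with no low-count filter (0.022), with no sex covariate (0.031), with the cortical score (0.021) or the septum, pallidum and thalamus score (0.0097) as a covariate, and without the 3 libraries farthest out (0.012). In limma with quality weights it was 0.010. Of the 16 fits that left out 1 library, only the 2 named passed, with an edgeR adjusted p of up to 0.17 in the others. Actn2 also did not pass with RLE factors or the earlier edgeR method. In edgeR it was 0.079 with the range of animal numbers as a covariate and 0.65 with the number as a block.

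Cdk19, a kinase of the Mediator complex that regulates transcription by RNA polymerase II, lies at chr10:40339564-40483818 on the plus strand. Its levels were 146, 158 and 167 CPM in WT and 107, 124 and 153 CPM in BAC-CAG. The BAC-CAG spread was wider and reached into the WT range. The log2 difference was -0.33 (SE 0.06, edgeR adjusted p = 0.11, DESeq2 adjusted p = 0.0010). Without BAC-CAG replicate 4 the edgeR adjusted p was 0.012. This was the 1 fit that passed of the 16 that left out 1 library, and the edgeR adjusted p was up to 0.36 in the others. Most of the Mediator complex lay on the other side: 23 of the 33 genes tested were positive and 10, with Cdk19 among them, negative, and the median was 0.05.

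Shank3, a scaffold of the postsynaptic density at glutamate synapses, was at 632, 684 and 716 CPM in WT and at 566, 600 and 656 CPM in BAC-CAG. The groups overlapped between 632 and 656 CPM. The log2 difference was small, -0.17 (SE 0.04, edgeR adjusted p = 0.32, DESeq2 adjusted p = 0.0010). St8sia2, a sialyltransferase that adds polysialic acid to the adhesion molecule NCAM, was at 21.7, 24.2 and 33.3 CPM in WT and 15.7, 18.2 and 22.1 CPM in BAC-CAG. The groups met only at their edges, with a log2 difference of -0.45 (SE 0.09, edgeR adjusted p = 0.15). Phex, an endopeptidase known from phosphate metabolism in bone, was at 3.10, 6.90 and 8.97 CPM in WT and 2.43, 3.94 and 4.91 CPM in BAC-CAG. Its groups overlapped more, with a difference of -0.81 (SE 0.17, edgeR adjusted p = 0.20).

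Among genes with higher levels, Ly6h, a GPI-anchored protein of the Ly-6 family that binds nicotinic receptors, was at 50.4, 58.4 and 67.6 CPM in WT and 66.8, 75.2 and 101 CPM in BAC-CAG. The groups nearly separated, with a log2 difference of 0.42 (SE 0.08, edgeR adjusted p = 0.15, DESeq2 adjusted p = 0.0018). Tnnt2, the cardiac form of troponin T, was at 2.36, 3.22 and 3.63 CPM in WT and 3.53, 4.53 and 4.81 CPM in BAC-CAG. Its groups also overlapped at the edge, with a difference of 0.52 (SE 0.10, edgeR adjusted p = 0.15). Gpr101, an orphan G-protein-coupled receptor, was at 4.91, 7.68 and 10.9 CPM in WT and 7.26, 14.4 and 20.3 CPM in BAC-CAG. The BAC-CAG libraries spread widely and overlapped WT, with a difference of 0.86 (SE 0.18, edgeR adjusted p = 0.20). Htr2c, a serotonin receptor, was at 59.2, 64.1 and 80.8 CPM in WT and 60.3, 87.8 and 97.7 CPM in BAC-CAG. The lowest BAC-CAG library was at the WT level, and the difference was 0.32 (SE 0.07, edgeR adjusted p = 0.20).

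In 8 of the 17773 genes (0.045%) the libraries of the genotypes did not overlap. There were 5 with higher levels in BAC-CAG (0.0281%) and 3 with lower levels (0.0169%). Besides Msantd1, the higher ones were Upk1b, a uroplakin, with Dcaf12l2, Arhgap28 and Tsen34, the last 3 chosen after their values were seen. Their levels were low except for Tsen34, a subunit of the tRNA splicing endonuclease, at 28.6 CPM in WT against 31.8 CPM in BAC-CAG (log2 difference 0.15). Besides Pkp2, the lower ones were Odf4, a sperm tail protein, at 1.76 and 1.17 CPM, and Mcam, an adhesion molecule of vessel walls, at 27.3 and 23.9 CPM, the latter chosen after its values were seen. None of these 6 further genes passed the edgeR threshold, and 2 passed in DESeq2, Upk1b (DESeq2 adjusted p = 0.0067) and Odf4 (DESeq2 adjusted p = 0.043).

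Most genes that mark spiny projection neurons had small negative differences. Of the 39 tested, 37 were negative and 2 positive, against 50.7% negative among all genes, and the median log2 difference was -0.13, against -0.0012. Unadjusted p was under 0.05 for 14 with lower levels (35.9%) and 2 with higher levels (5.13%). Among all genes tested these shares were 2.26% and 2.27%. None of the 39 passed the adjusted threshold in edgeR. In bulk tissue fewer cells of a type and less RNA per cell cannot be told apart. The range was -0.48 to 0.31, set by Actn2 below and Pdyn above. The number lower at unadjusted p under 0.05 was 14 with the range of animal numbers as a covariate, 26 with the septum, pallidum and thalamus score as a covariate and 22 without the 3 libraries farthest out. The count of negative members was 37 with the range of animal numbers or the septum, pallidum and thalamus score as a covariate and 36 without the 3 libraries farthest out, and the median was -0.16 to -0.10 over fits that left out 1 library each.

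**Figure D4:**
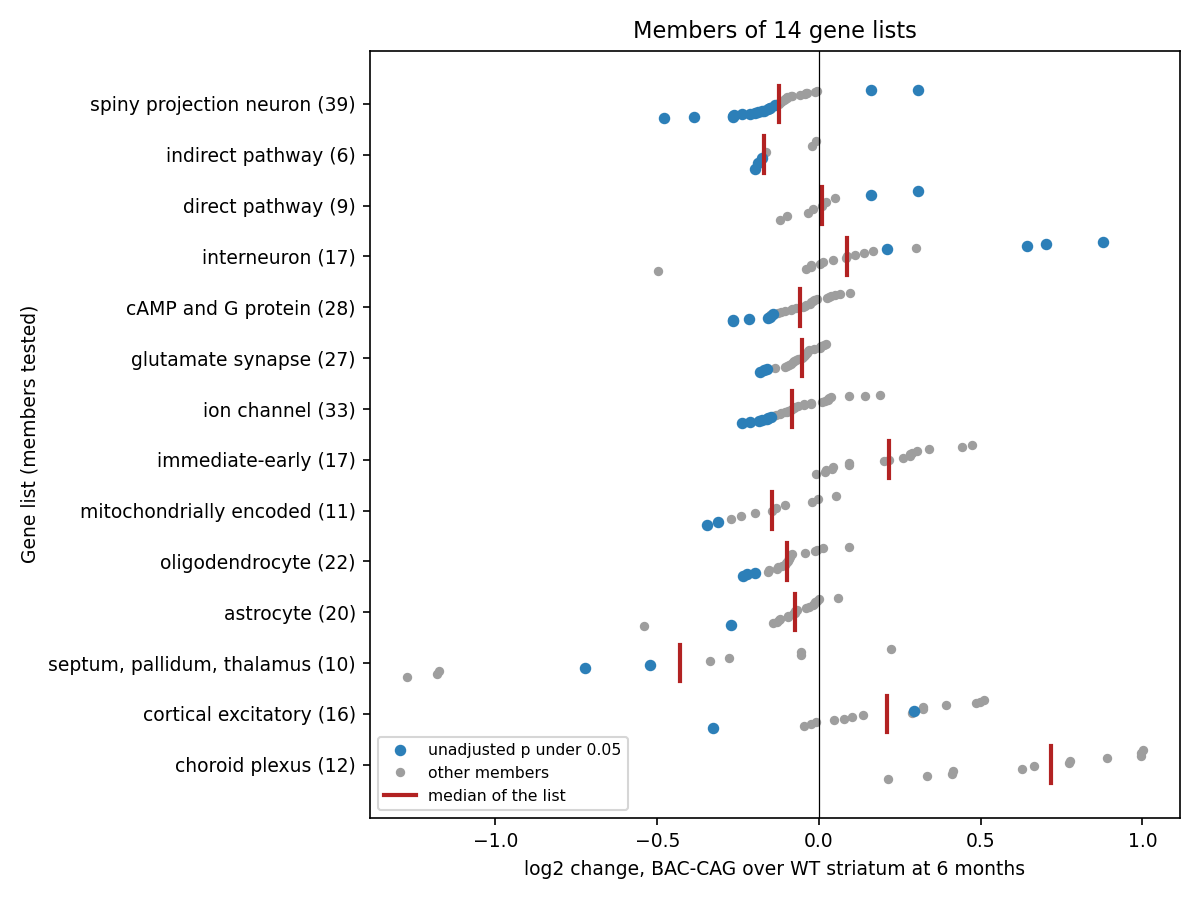
Log2 difference between BAC-CAG and WT striatum at 6 months for each tested member of 14 gene lists, with a point per gene (blue for unadjusted edgeR p under 0.05, grey otherwise) and a red line at the list's median. Members of the spiny projection neuron list lie mostly below 0 (median -0.13), whereas interneuron genes lie mostly above 0 (median 0.09).

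Rgs4, which speeds the shut-off of G-protein signals, was at 536, 588 and 626 CPM in WT (lowest, median, highest) and 392, 485 and 565 CPM in BAC-CAG. Every BAC-CAG library was below the WT median, with a log2 difference of -0.26 (SE 0.07, edgeR adjusted p = 0.52). Cnr1, the CB1 cannabinoid receptor, was at 301, 434 and 485 CPM in WT and 240, 314 and 428 CPM in BAC-CAG. Its groups overlapped between 301 and 428 CPM, again with every BAC-CAG library below the WT median. The difference was -0.39 (SE 0.12). Pde10a, which degrades cAMP and cGMP, was at 1778, 2112 and 2399 CPM in WT and 1331, 1842 and 2103 CPM in BAC-CAG. Here too every BAC-CAG library was below the WT median, with an overlap between 1778 and 2103 CPM and a difference of -0.26 (SE 0.09). In separate fits the estimates for Pde10a and Cnr1 were unlike in the ranges of animal numbers, and those for Rgs4 were close. In mice numbered 1 to 3 and in those numbered 14 to 19, in that order, Pde10a had -0.02 (SE 0.09) and -0.46 (SE 0.13). Cnr1 had -0.15 (SE 0.12) and -0.65 (SE 0.16), and Rgs4 -0.28 (SE 0.06) and -0.25 (SE 0.12). Whether the genotype difference varied with the range was not tested.

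The peptides and receptors of the pathways did not move as a block. All 6 tested indirect-pathway genes were negative, with a median of -0.17. Unadjusted p was under 0.05 for 3 of them (50%), against 2.26% lower of all genes tested. Drd2, the receptor of that pathway, was at 195, 226 and 286 CPM in WT and 169, 206 and 240 CPM in BAC-CAG, overlapping for most libraries (log2 difference -0.20, SE 0.08). Adora2a, the adenosine receptor that opposes it, had a difference of -0.18 (SE 0.07). Penk, the precursor of enkephalin, had one of -0.17 (SE 0.10). With the range of animal numbers as a covariate 4 of the 6 genes were negative. Of the 9 direct-pathway genes 5 were positive and 4 negative, with a median of 0.01, and between -0.02 and 0.03 with 1 library left out. Without the 3 libraries farthest out 5 were negative, with a median of -0.03. With the septum, pallidum and thalamus score as a covariate 6 were negative (median -0.04), and with the range of animal numbers 3 (median 0.02). The 2 genes higher at unadjusted p under 0.05 (22.2%, against 2.27% of all genes tested) became 0 without the 3 libraries farthest out. Pdyn, the precursor of dynorphin, was at 74.9, 97.7 and 132 CPM in WT and 98.6, 115 and 154 CPM in BAC-CAG. These ranges overlapped, with a difference of 0.31 (SE 0.10, edgeR adjusted p = 0.97). Tac1, the precursor of substance P, had a difference of 0.16 (SE 0.07), and Drd1 one of -0.10. The difference between the pathways was not tested.

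Lists of signalling and synaptic genes had negative medians of smaller size. The lists share members, so they are not separate evidence. Rgs4, Pde10a and Adcy5 of the cAMP and G-protein list and Scn4b of the ion channel list are also in the spiny projection neuron list. So are Drd2, Adora2a and Penk of the indirect pathway and Pdyn and Tac1 of the direct pathway. In cAMP and G-protein signalling 22 of 28 genes were negative, with a median of -0.06, and Adcy5, the main adenylyl cyclase of the striatum, had -0.16. At glutamate synapses 22 of 27 were negative, with a median of -0.05. Besides Shank3, this list includes Dlgap3, a further postsynaptic scaffold, at -0.16. Among ion channels 24 of 33 were negative, with a median of -0.08, and the smallest p-values belonged to the sodium channel subunit Scn4b at -0.24, the calcium channel Cacna1c at -0.15 and the potassium channel Kcna2 at -0.19. Of the clustered protocadherins, neuronal surface proteins encoded in tandem arrays, 42 of 56 were negative, with a median of -0.07. No gene of these 4 lists passed the adjusted threshold in edgeR, and at unadjusted p under 0.05 they held 6, 3, 7 and 3 lower genes in that order and no higher one, against 2.26% lower and 2.27% higher of all genes tested. For the 56 protocadherins the count was 1 with the range of animal numbers as a covariate. The 6 genes of cAMP and G-protein signalling became 12 with the septum, pallidum and thalamus score as a covariate and 11 without the 3 libraries farthest out, and the 7 ion channel genes became 4 with the range of animal numbers.

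Genes of interneurons lay on the other side at 6 months. Of the 17 tested, 13 were positive and 4 negative, with a median of 0.09. The median of this list in striatum was 0.18 at 2 months and -0.18 at 12 months. At 6 months 4 genes (23.5%) were higher at unadjusted p under 0.05 in edgeR, against 2.27% of all genes tested. These 4 were Crh, corticotropin-releasing hormone, at 0.88 (SE 0.23), Vip, vasoactive intestinal peptide, at 0.70 (SE 0.19), Calb2, calretinin, at 0.64 (SE 0.23), and Nkx2-1, a transcription factor of ventral forebrain interneurons, at 0.21. Their levels were low: Vip was at 0.518, 0.768 and 1.0 CPM in WT and 0.836, 1.10 and 2.12 CPM in BAC-CAG. The groups overlapped, as they did for Crh at 0.560 to 1.80 CPM in WT and 1.27 to 3.21 CPM in BAC-CAG. Genes of cortical excitatory neurons, which should be scarce in striatum, were positive in 12 of 16, with a median of 0.21 and scores of 3.16 to 4.38 in WT and 3.35 to 4.66 in BAC-CAG. The sign of this median rested on 1 library: it was -0.03 without BAC-CAG replicate 3 and 0.05 without BAC-CAG replicate 1, 0.14 without WT replicate 7 and 0.11 without WT replicate 8. Of the other members of the interneuron list, Pvalb, parvalbumin, had -0.50, and Chat, of cholinergic neurons, -0.02. The part of cortical tissue in the interneuron values was not tested.

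Glial lists had negative medians. Oligodendrocyte genes were negative in 20 of 22, with a median of -0.10. Of these genes 3 (13.6%) were lower at unadjusted p under 0.05 in edgeR, against 2.26% of all genes tested. The count was 2 with the range of animal numbers as a covariate. Tspan2, a tetraspanin of myelinating cells, was at 120, 137 and 152 CPM in WT and 94.3, 117 and 131 CPM in BAC-CAG. The ranges overlapped between 120 and 131 CPM, with a difference of -0.23 (SE 0.06, edgeR adjusted p = 0.62). Astrocyte genes were negative in 19 of 20, with a median of -0.07, and Aqp4, the water channel, was the 1 with unadjusted p under 0.05. Microglial genes were negative in 18 of 22, with a median of -0.06, and none had unadjusted p under 0.05. Their median was between -0.11 without BAC-CAG replicate 5 and 0.03 without WT replicate 6.

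Immediate-early genes, which respond to neuronal activity within minutes, were positive in 16 of 17, with a median of 0.22, and none had unadjusted p under 0.05. With the range of animal numbers as a covariate the median was 0.10 and 3 of the 17 were negative. It was 0.13 without WT replicate 3 or BAC-CAG replicate 6, 0.14 without BAC-CAG replicate 7, 0.33 without BAC-CAG replicate 1 and 0.34 without WT replicate 8. Fos was at 5.50, 10.7 and 22.1 CPM in WT and 5.67, 15.3 and 35.5 CPM in BAC-CAG, a difference of 0.47 (SE 0.34) within overlapping ranges. Genes of the respiratory chain encoded in the nucleus were positive in 52 of 75, with a median of 0.02, and 10 of 11 encoded in mitochondrial DNA were negative, with a median of -0.15. The nuclear direction rested on BAC-CAG replicate 5, whose score for this list was the highest of its group at 5.69: without it the median was -0.02, and without the 3 libraries farthest out 52 of the 75 were negative, with a median of -0.02. For the mitochondrial list the median without BAC-CAG replicate 4 was -0.09. Among the latter mt-Nd5, a subunit of complex I, was at 5545, 7443 and 9539 CPM in WT and 4406, 5907 and 7555 CPM in BAC-CAG. The ranges overlapped, with a difference of -0.35 (SE 0.12, edgeR adjusted p = 0.93). Counts of mitochondrial genes can be shared with near-identical nuclear copies and are uncertain. Chaperone genes were positive in 19 of 23, with a median of 0.07. This median was 0.02 without the 3 libraries farthest out or without BAC-CAG replicate 5 alone, 0.03 without BAC-CAG replicate 6 or 7, 0.05 without WT replicate 1, and 0.04 without WT replicate 2 or 4.

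The median of the choroid plexus list rested on single libraries. All 12 genes were positive, with a median of 0.72, and none had unadjusted p under 0.05. The score was 4.14 in BAC-CAG replicate 1 and 3.07 in WT replicate 5. Without the former the median was -0.03, and without the latter it was 1.22.

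The other ages and the cortex place the 6-month values. At 2 months, with 12 striatum libraries, 1 of 17923 genes was called (0.00558%), and at 12 months, with 16 libraries from other animals, 64 of 18246 (0.351%). In the cortex of the same 6-month mice 2 of 17563 were called (0.0114%). Msantd1 had a log2 difference of 2.32 at 2 months, 2.16 at 6 months and 2.44 at 12 months in striatum, and 1.76 in cortex. Pkp2 had -0.99, -1.03 and -1.01 in striatum at these ages, with edgeR adjusted p of 0.75, 0.016 and 8.4e-05. The size hardly varied with age while the p-values did. In cortex the WT libraries held 2.26 ± 0.53 CPM of Pkp2 and the BAC-CAG libraries 2.69 ± 0.997 CPM (SD, n = 8 each), a difference of 0.27. In BACHD striatum at 12 months, from another BAC line with human mutant HTT, where 6 of 15861 genes were called (0.0378%), Pkp2 had -1.59 and Msantd1 3.45. Actn2 had -0.50, -0.48 and -0.62 at the 3 ages and -0.72 in BACHD, and Cdk19 -0.25, -0.33 and -0.34 with -0.45 in BACHD.

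**Figure D5:**
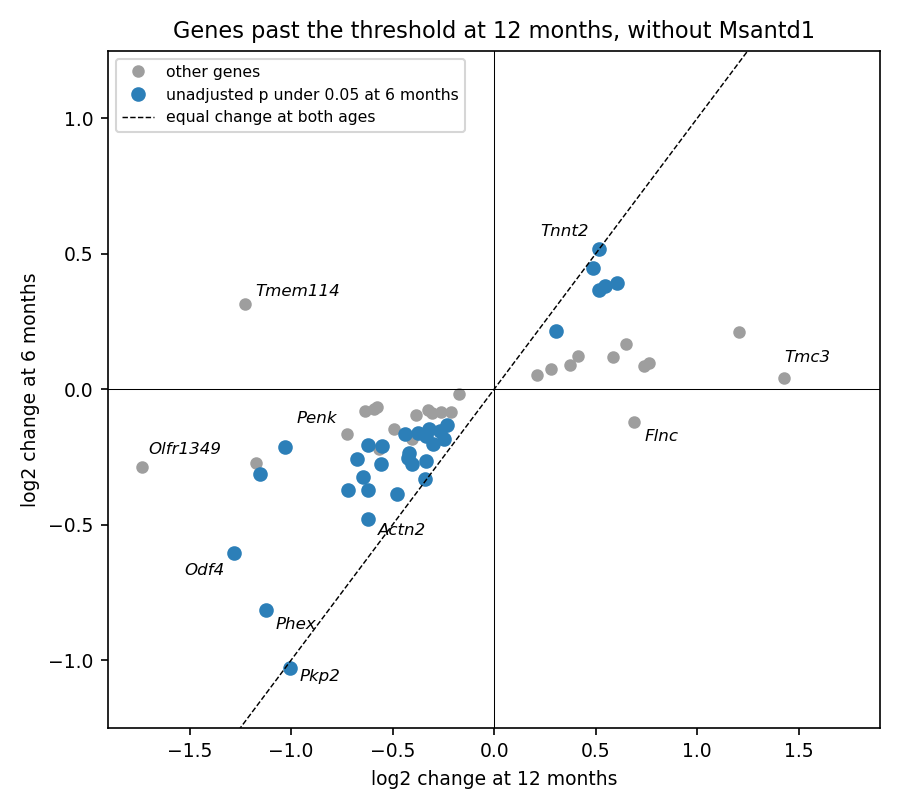
Log2 difference between BAC-CAG and WT striatum at 6 months (vertical axis) against that at 12 months (horizontal axis) for the genes called at 12 months and tested at 6, without Msantd1; blue points had unadjusted p under 0.05 at 6 months, and the dashed line marks equal values. Most points lie between the horizontal axis and the dashed line, Pkp2 and Tnnt2 lie on the line, and Tmem114 and Flnc have opposite signs at the 2 ages.

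The genes called at 12 months gave a test set from other animals. Of the 64, 63 were tested at 6 months, and 61 had the same sign there (96.8%), against 58.3% of the 17707 genes tested at both ages. Of 45 genes that fell at 12 months 44 were negative at 6 months, and of 18 that rose 17 were positive. The exceptions were Tmem114, at 0.32, and Flnc, a filamin, at -0.12. At 6 months 34 of them had the same sign with unadjusted p under 0.05 (54.0%), against 3.55% of all genes. Their median absolute log2 difference was 0.52 at 12 months and 0.20 at 6 months, and the median ratio of the 6-month to the 12-month value was 0.39. The difference was larger at 12 months in 61 of the 63, against 56.8% of all genes. These genes were chosen for their difference at 12 months, and such a choice by itself favours smaller values elsewhere. Penk had -0.72 at 12 months and -0.17 at 6 months, while Phex had -1.13 and -0.81.

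Tests of the differences themselves called no gene. The effect of genotype on striatum at 6 months differed between females and males for 0 of 17773 genes in edgeR, with 2189 at unadjusted p under 0.05. That is well above the 805 of the same 17773 genes (4.53%) that the genotype effect itself had at this level. The 0 calls therefore do not show that the effect was equal in the sexes. Between striatum and cortex the effect of genotype differed for 0 of 18662 genes, with 495 at unadjusted p under 0.05. Between 12 and 6 months the counts were 0 of 18770 and 741, and between 6 and 2 months 0 of 18633 and 666. The earlier quasi-likelihood method of edgeR also called 0 in each. The smallest p for tissue belonged to Pkp2, whose difference in striatum was lower than in cortex by a log2 value of -1.30 (SE 0.25, edgeR adjusted p = 0.26). With the animal as a block this value was -1.28 (SE 0.21, edgeR adjusted p = 0.12). Gpr155, an integral membrane protein, followed with -0.42, and Pcdh20, a protocadherin, with 0.57. For sex the smallest p-values included Ttr, transthyretin of the choroid plexus, at -5.22 (male minus female, SE 1.04, edgeR adjusted p = 0.37), and BAC-CAG replicate 1, with the highest choroid plexus score, is female.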

How the data were processed

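Total RNA was made into libraries with a stranded TruSeq kit, per the labels' protocols; the design text names another TruSeq kit and fewer mice per age than the labels. The authors deposited raw read counts per gene, aligned with STAR to GRCm38/mm10 and counted with HTSeq, per the submitters' processing notes; versions and the strand setting are not given in the sources used here. The deposited counts of the 16 libraries (27.5 M to 42.8 M reads each) were taken from 1 table of 48795 genes, of which 31382 had a count above 0. Genes kept by filterByExpr (17773) were fitted with edgeR 4.0.16 (R 4.3.3; TMM factors, quasi-likelihood F test, sex as covariate, Benjamini-Hochberg adjustment, threshold 0.05). SE is the log2 difference divided by the root of F. Interactions used joint fits with sex within age or tissue. DESeq2 1.42.0 and limma 3.58.1 with quality weights were alternatives, as were other factors, filters, covariates and leaving out each library. The procedure was tested on simulated counts. Single genes had an exact two-sided permutation test on log2(CPM + 1) with a pseudocount of 1. No 2 libraries of the same genotype agreed within sampling noise (smallest chi-square per gene 4.59).

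The genes and lists were chosen with earlier results of these data known. Named are Htt, Msantd1, genes called by edgeR or DESeq2, the 12 smallest p-values in each direction at a mean of 1 CPM or more, and up to 4 per list or interaction; others are marked. Lists are described by counts and medians, with no test. Cortex and striatum came from the same 16 animals, and their deviations from the group means correlated with a median r of 0.33 (lowest 0.14, highest 0.50). Values of 2 genes under the naming rule are not reported here.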

Additional observations from a re-analysis of the deposited data

Results flagged for a closer look

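In 20 of 198 groups of 8 values, 1 library stood apart from the other 7, by Dixon's criterion on the gap to its nearest neighbour over the whole range; chance gives about 1 in 20 groups (5%). BAC-CAG replicate 5 accounted for 7 and WT replicate 5 for 6.

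In BAC-CAG replicate 5, Htt was low at 159 CPM, and Med29 (5.15 CPM) and Dlgap3 (659 CPM) were high. Its scores, as mean log2(CPM + 1), were low for GABA genes (7.42) and high for nuclear respiratory chain genes (5.69), the proteasome (5.52) and microglia (5.09). In WT replicate 5, Ctnnd1 (21.1 CPM) and Prkcd (249 CPM) were high and Tac1 (104 CPM) was low. Its scores were low for the direct pathway (5.60) and high for choroid plexus (3.07) and developmental regulators (2.30).

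In BAC-CAG replicate 7, Adcy5 was low at 1148 CPM, and Rora (116 CPM) and Tcf7l2 (23.1 CPM), both of the septum, pallidum and thalamus list, were high. BAC-CAG replicate 6 was high for Crh (3.21 CPM). Single high values were St8sia2 in WT replicate 2 (33.3 CPM) and Nrep in WT replicate 1 (55.0 CPM). The ependymal score was low in WT replicate 4 (1.53).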

How the results depend on the processing

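The number of genes called was 2 with RLE factors or the earlier edgeR method, and 3 with no low-count filter, no sex covariate, the cortical score as a covariate, a threshold of 0.1, or without the 3 libraries farthest out. It was 24 in DESeq2, 6 in limma with quality weights, 6 with the septum, pallidum and thalamus score as a covariate, 1 with the range of animal numbers as a covariate and 1 with the animal number as a block. Leaving out each library gave 1 to 4 calls, 1 without WT replicate 1 or 3 or BAC-CAG replicate 1, 2, 3 or 8, and 4 without BAC-CAG replicate 4 or 5. Msantd1 passed in every fit. The Pkp2 difference was -0.97 (edgeR adjusted p = 0.068) with the range as a covariate and -1.15 (edgeR adjusted p = 0.14) with the number as a block, and -1.10 to -0.96 with 1 library left out (10 of 16 fits passed). Genes without overlap numbered 7 without TMM factors and 8 to 14 with 1 library left out. The interaction counts were 0 in each fit; with the animal as a replicate block for tissue, a pairing that comes from shared animals, 0 genes were called and 1045 had unadjusted p under 0.05, and the block changed no call. No value changed sign among called results. Of the named genes' values, 1844 kept their side of the threshold, 38 newly passed and 8 no longer did. The 3 covariate or library choices on animal numbers, the thalamus score and the outlying libraries were added after seeing the data; the cause of each move was not tested.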

Other observations

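Further gene groups are given beside all genes tested, whose median log2 difference was -0.0012, with 2.26% lower and 2.27% higher at unadjusted p under 0.05 in edgeR. DNA mismatch repair genes, which act on the length of CAG repeats in somatic cells, were positive in 6 and negative in 9 of 15, with a median log2 difference of -0.0089, and none had unadjusted p under 0.05 in edgeR. Genes of cholesterol synthesis were positive in 8 and negative in 14 of 22, with a median of -0.02. Circadian clock genes were positive in 9 and negative in 9 of 18, with 3 lower at unadjusted p under 0.05, and interferon-response genes were positive in 12 and negative in 11 of 23, with none. Genes of striosome and matrix, the compartments of the striatum, were positive in 5 and negative in 2 of 7. Markers of vessels were negative in 14 of 21, with a median of -0.05 and 3 lower at unadjusted p under 0.05.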
